A study of Mus musculus with 2 samples.

Results

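The forkhead (Fox) transcription factors, with Foxh1 set aside, were examined in a mouse embryonic stem cell line, E14, in which Mll2 was targeted by a lentiviral short hairpin RNA (shRNA), with a control shRNA for comparison. The members are all rows of the expression table whose platform annotation gives 1 symbol only, that symbol being Fox followed by a letter and a number. This rule took 79 probe sets for 36 genes, of 18193 genes that a probe set names alone. The family was chosen by a measured value: Foxa2 had the second-highest ratio of Mll2 shRNA to control shRNA among all measured genes. That ratio is therefore a description of these arrays and supports nothing beyond them.

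Per the labels, cells were infected for 24 h and then kept in puromycin for 5 days. No source says that the shRNA-carrying cells are a clone, and an untreated group was not analysed here. Total RNA was amplified, labelled with biotin and read on 1 Affymetrix 3' expression array per group, called the knockdown array and the control array below. With 1 array in each group there are no replicates, no test was possible, and no difference below has an error between cultures. In bulk RNA of this kind, a larger share of cells that transcribe a gene and more transcript in each cell cannot be told apart.

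Forkhead factors share a winged-helix DNA-binding domain and are named by subfamily letter. Foxa proteins can bind their sites in closed chromatin and act in endoderm, node, notochord and floor plate. Foxo proteins sit at the end of the insulin and PI3K pathway, where phosphorylation by Akt keeps them out of the nucleus, and Foxo1 has been described as a regulator of pluripotency genes in embryonic stem cells. Foxd3 is needed to keep mouse embryonic stem cells undifferentiated. Foxm1 drives genes of mitosis. Many other members act in particular tissues of the embryo or the adult. Mll2 proteins methylate lysine 4 of histone H3, a mark of promoters and enhancers.

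The promoter stretches of Foxa2 and of its nearest relative Foxa1 are shown because Foxa2 was the member with the largest ratio while Foxa1 differed little. They are the 250 bases before each annotated start in RefSeq, build GRCm38.p6, with CpG dinucleotides in capitals, read 5′ to 3′ on the minus strand, where both genes lie. The 3 Foxa2 stretches are at chr2:148046970-148047219, chr2:148045949-148046198 and chr2:148045465-148045714, and the Foxa1 stretch is at chr12:57546112-57546361.
Foxa2, first start: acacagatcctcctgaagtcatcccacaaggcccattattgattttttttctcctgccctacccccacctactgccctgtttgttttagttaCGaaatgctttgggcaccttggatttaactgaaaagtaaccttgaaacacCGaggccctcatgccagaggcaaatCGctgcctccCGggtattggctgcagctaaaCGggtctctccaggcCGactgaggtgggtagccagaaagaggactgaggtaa
Foxa2, middle start: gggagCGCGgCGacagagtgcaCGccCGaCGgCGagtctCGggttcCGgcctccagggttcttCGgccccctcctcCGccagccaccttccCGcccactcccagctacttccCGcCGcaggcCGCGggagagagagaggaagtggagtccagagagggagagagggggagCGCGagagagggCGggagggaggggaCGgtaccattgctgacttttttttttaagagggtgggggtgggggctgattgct
Foxa2, last start: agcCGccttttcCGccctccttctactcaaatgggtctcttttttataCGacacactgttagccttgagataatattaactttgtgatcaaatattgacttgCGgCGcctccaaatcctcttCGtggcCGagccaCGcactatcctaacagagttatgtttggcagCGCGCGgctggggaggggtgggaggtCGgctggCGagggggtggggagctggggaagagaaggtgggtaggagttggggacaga
Foxa1: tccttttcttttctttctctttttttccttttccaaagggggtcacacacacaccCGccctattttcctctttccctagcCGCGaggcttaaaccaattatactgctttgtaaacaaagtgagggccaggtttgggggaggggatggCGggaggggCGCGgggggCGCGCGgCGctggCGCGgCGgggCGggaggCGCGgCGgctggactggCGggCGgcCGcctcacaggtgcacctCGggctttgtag

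Unmethylated CpG dinucleotides are bound by the CXXC domain of Kmt2b, a protein also named Mll2. The Kmt2b transcript differed little here (852 in the knockdown array and 901 in the control), while Kmt2d, also called Mll2, was 2.20-fold lower. The 3 Foxa2 stretches above hold 6, 20 and 13 CpG in the reference sequence, and the Foxa1 stretch holds 21. Methylation and protein binding were not measured here, and a link between CpG content and the ratios was not tested. RefSeq windows, which run from 250 bases before to 50 bases after a start, were matched by symbol for 24 of the 36 genes (29 windows). Their median was 22 CpG, against 13 in 21262 windows of protein-coding genes, of which 31.3% held 22 or more. In each gene's richest window, the median was 27 CpG (6 to 59) over 17 Fox genes with a measurable signal. It was 10 CpG (6 to 27) over 7 Fox genes without one. The ranges overlapped. The same split was not made over all genes, so this contrast does not set the Fox genes apart. The median of 13 above counts every window and is no background for it. Taking the richest window can favour genes with several starts, here Foxa2 and Foxp1, both measured, and Foxp3, which was not. The forkhead core motif TGTTTAC, searched on both strands, was in 1 of the 29 windows (3.45%), that of Foxa1, 141 bases before the start, and in 3.01% of the protein-coding windows. Only this exact sequence was searched, so windows without it may hold other forms of the motif.

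The values are log2 MAS5 signals, and signals below are given on the linear scale. Because MAS5 values of dim probe sets are noisy, a signal of 64.7, the 50th percentile over both arrays, served as a floor. Genes with any probe set over the floor on either array were taken as measured, each through its probe set with the highest mean, which left 11805 genes. Ratios are log2 of Mll2 shRNA over control shRNA with lower values raised to the floor, so a ratio with 1 array below the floor is a bound, written "at least". The spread at a gene's level was taken from the 500 measured genes closest to it in signal, as their median absolute deviation in ratio times 1.4826. It holds noise together with any real differences and does not measure variation between cultures.

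Both Kmt2d and Kmt2b have been called Mll2, and which of them the shRNA targets is not stated in the labels. Kmt2d was 2.20-fold lower, at 335 in the knockdown array and 736 in the control array (log2 ratio -1.14, spread 0.33). Its other probe set lay under the floor on both arrays. Kmt2b had 852 and 901 (-0.08, spread 0.27), a difference inside the spread. Of the 10 embryonic stem cell markers listed, all were above the floor on both arrays, none differed by 2-fold, and their summed signal was 89765 in the knockdown array and 92393 in the control array. The 4 with the largest ratios in size were Klf4 (0.59), Esrrb (0.53, with other probe sets down to -0.22), Nanog (0.47) and Pou5f1, which encodes Oct4 (-0.44).

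Of the 36 Fox genes, 25 were measured, from 12 of the 16 subfamilies. Foxa2 was the only one of them at least 2-fold higher and none was at least 2-fold lower, where 1.47% of all measured genes were 2-fold higher and 0.983% 2-fold lower. At 1.5-fold the count was still 1 gene higher (Foxa2), and 2 genes were lower (Foxo4 and Foxp4). The shares over all measured genes were 7.4% and 4.68%. Without Foxa2, the other 24 ratios ran from -0.81 to 0.57. Ratios above 0 were found in 15 of the 25 genes, against 53.5% of all measured genes. The 15 include Foxa2, by which the family was chosen. The median was 0.12, or 0.10 without Foxa2, against 0.03 over all measured genes. It was only 0.01 over the 20 genes with both arrays above the floor, which divided into 10 above 0 and 10 below, where 53.7% of all genes with both arrays above the floor were above 0. In the other 5 genes the probe set used passed the floor on the knockdown array only, so that its ratio could only be positive.

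**Figure D1:**
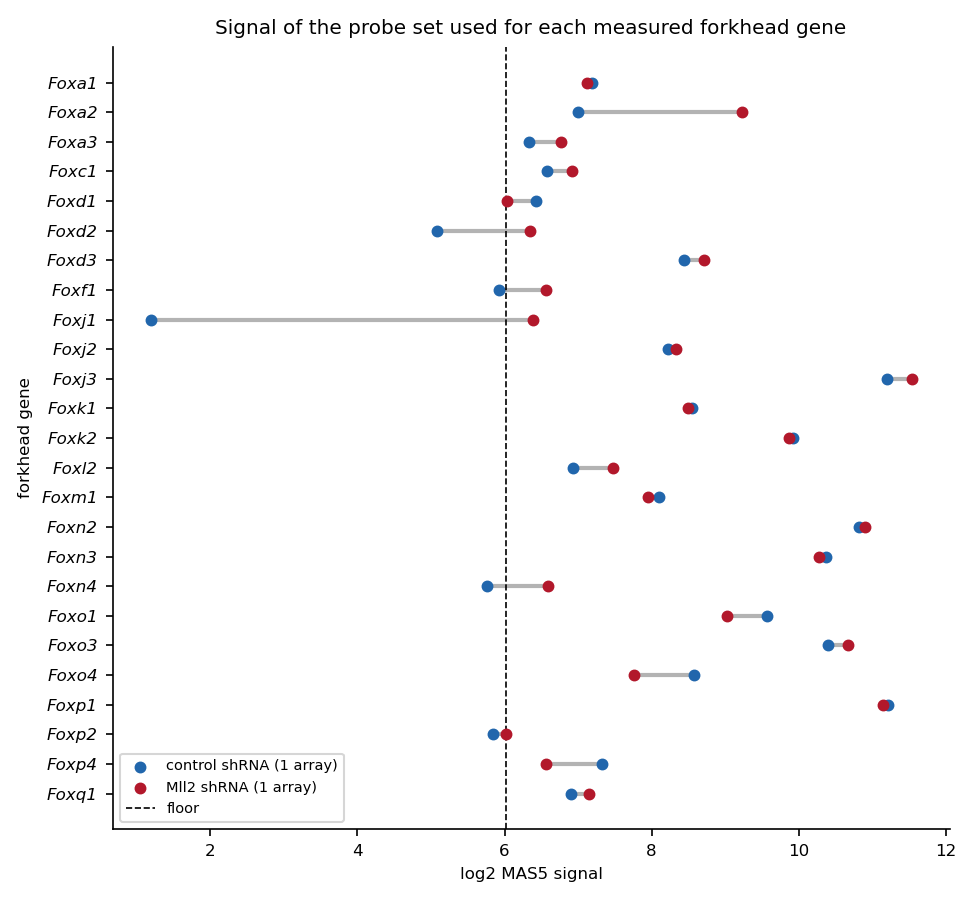
Log2 MAS5 signal (x axis) of the probe set used for each of the 25 measured forkhead genes (y axis) on the control shRNA array (blue) and the knockdown array (red), with 1 array per group and the floor as a dashed line. Foxa2 has the longest line with both ends above the floor; the lines of Foxd2, Foxf1, Foxj1, Foxn4 and Foxp2 start below it.

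Foxa2, a pioneer factor of endoderm and axial mesoderm, had a signal of 601 in the knockdown array and 128 in the control array, 4.71-fold higher (log2 ratio 2.23). Both signals were above the floor, and the ratio was 6.13 times the spread of 0.36 at its level. A single probe set covers Foxa2, so no second probe set bears on this value. Foxa1, its paralogue in gut and other epithelia, had 139 and 147 (-0.08, spread 0.50). Foxa3, best known from liver, had 109 and 81.0 (0.43, spread 0.52). Neither Foxa1 nor Foxa3 lay outside the spread at its level. The direction of Foxa1 turned with spike-in scaling (0.04).

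**Figure D2:**
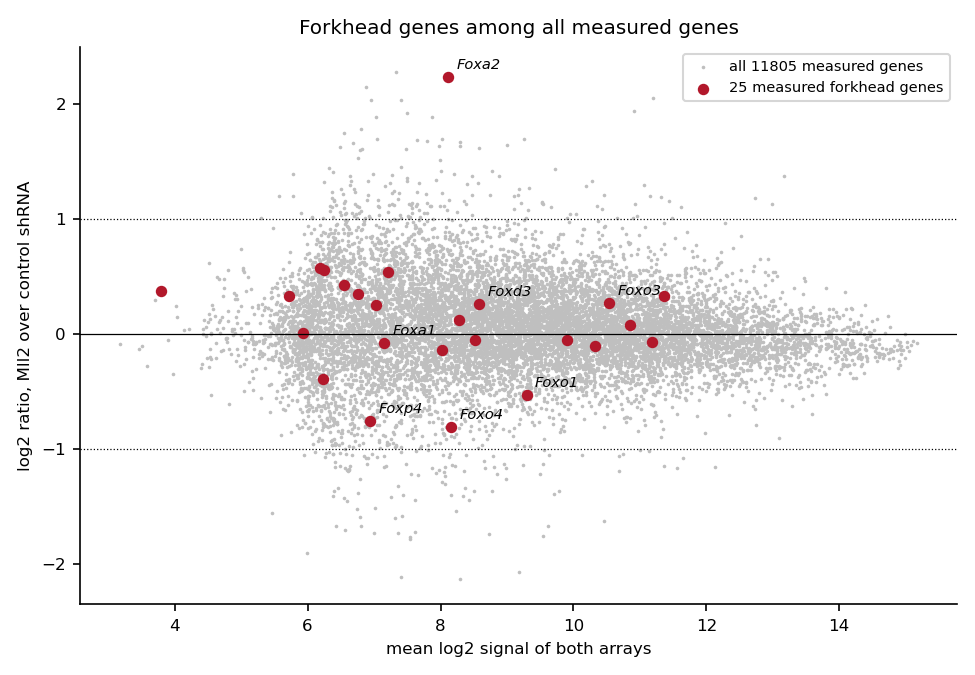
Log2 ratio of Mll2 shRNA over control shRNA (y axis) against the mean log2 signal of both arrays (x axis) for all 11805 measured genes (grey) and the 25 measured forkhead genes (red), with dotted lines at 2-fold. Foxa2 at 2.23 is the only red point past a dotted line; Foxo4 at -0.81 and Foxp4 at -0.76 are the lowest.

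Genes known from the places where Foxa2 normally acts were compared next. Of 20 genes of endoderm, node, notochord and floor plate, 9 were measured, and their median was -0.15 (0.03 over all measured genes). Under the alternatives it ran from -0.35, with the mean over probe sets, to -0.0087, with spike-in scaling. The median was -0.21 over the 7 genes above the floor on both arrays. Of those, Krt8, Krt18 (11117 in the knockdown array and 14840 in the control), Epcam (7509 and 8656) and Nodal (2892 and 3216) were bright on both. Their signals in these stem cells do not mark endoderm, node, notochord or floor plate, so the medians do not measure such cells. Shh, the ligand made by notochord and floor plate, was at least 2.25-fold higher, with 146 in the knockdown array and 48.4, under the floor, in the control array. It was the only member past 2-fold. Sox17, an endoderm factor, had a log2 ratio of at least 0.59 (97.2 and 54.6). Shh and Sox17 passed the floor on the knockdown array only, so that their ratios could only be positive. The epithelial keratin gene Krt8 was at -0.57 (9200 and 13635) and Otx2, a factor of anterior epiblast and endoderm, at -0.48 (410 and 572). Hhex had 349 and 354 (-0.02), and Eomes 226 and 199 (0.18), with -0.92 in its other probe set. Epcam was at -0.21, with 0.525 in its other probe set, and Nodal at -0.15, with -0.55 in its other. Cer1, Gsc, Mixl1, Cxcr4, Lhx1, Chrd, Nog and Dand5 were under the floor on both arrays.

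Of 20 genes described as Foxa targets in liver, gut and lung, only 3 were measured. Apob, the structural protein of lipoproteins, was at least 3.45-fold higher (223 in the knockdown array and 55.4 in the control). Sftpb, a surfactant protein gene, was at least 1.03-fold higher (66.7 and 49.3). Apob and Sftpb passed the floor on the knockdown array only, so that their ratios could only be positive. Cpt1a, the enzyme of mitochondrial fatty acid import, was level on the arrays (625 and 626), with other probe sets down to -0.38. The liver genes Ttr, Alb, Afp, Apoa1, Apoa2, Tat, G6pc, Pck1 and Hnf4a were below the floor on both.

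Markers of cell types other than embryonic stem cells were set beside Foxa2. Of 12 primitive endoderm markers 10 were measured. Their summed signal was 14100 in the knockdown array and 14214 in the control array, and none differed by 2-fold. Bright genes weighed most in that sum, among them Nid1 (3935 and 2207) and Sparc (3111 and 4624), in opposite directions. The list median was 0.08, and -0.03 over the 8 above the floor on both arrays. Of the defining genes, Gata4 and Pdgfra were under the floor on both, and Gata6 had 126 and 124 (0.03). Sox7 (76.4 and 59.2) passed on the knockdown array only, as did Sox17, so that their ratios could only be positive. Within that list the basement membrane gene Nid1 was at 0.83, Sox17 at least at 0.59 and Dab2 at -0.59. Sparc was at -0.57, with other probe sets from -0.67 to 0.02. Of 10 neural markers 8 were measured, with summed signals of 2225 and 1747. Their median was 0.41, and 0.14 over the 6 above the floor on both arrays; Hes5 and Pax3 passed on the knockdown array only, and their ratios could only be positive. The median of the list ran from 0.14, with the mean over probe sets, to 0.52, with spike-in scaling. The neural progenitor gene Sox1 was 2.51-fold higher (286 and 114), the Notch target Hes5 at least 1.89-fold higher (122 and 16.3), Pax3 at least 1.59-fold higher and Map2 at 0.59, with other probe sets down to -0.35. Nes was at -0.29, with -0.51 in its other probe set, Zic1 at -0.10, Pax6 at 0.06 and Tubb3 at 0.22. Neurog2 was under the floor on both arrays. Of 10 fibroblast markers 4 were measured, with summed signals of 579 and 535. Col1a2 was at 0.70 and Col3a1 at 0.34, with 0.08 in its other probe set. Col1a1 was at least 1.49-fold lower, but its other probe set was at 0.0036, and S100a4 was at least 1.33-fold lower. In the probe sets used, Col1a1 and S100a4 passed the floor on the control array only, so that these ratios could only be negative. Thy1, Postn, Lum, Dcn, Fap and Twist2 were under the floor on both arrays. The part of any of these cell types in the Foxa2 difference was not tested.

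The Foxo genes went in different directions. Foxo4 was 1.76-fold lower, with 216 in the knockdown array and 380 in the control array (log2 ratio -0.81, spread 0.38). Its other probe set was under the floor on both. Foxo1 had 522 and 756 in the probe set used (-0.54, spread 0.33). Its other probe sets above the floor had 372 and 732 (-0.98) and 354 and 493 (-0.48). All 3 were lower in the knockdown array, by -0.66 ± 0.27 (SD over 3 probe sets). They carry the same accession in the platform annotation, so they target 1 transcript on the same arrays and are not independent. The probe set used has a suffix for probes that can read several transcripts, and without it Foxo1 was represented by the one at -0.98.

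Foxo3 was on the other side of 0. Its probe sets had 1628 against 1352 (0.27) and 759 against 607 (0.32), a mean of 0.29 ± 0.04 (SD over 2 probe sets with the same accession). The difference used for the gene was just inside the spread of 0.28 at its level. Foxo1 and Foxo4 kept a negative ratio and Foxo3 a positive one under each of the 10 alternatives tried.

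**Figure D3:**
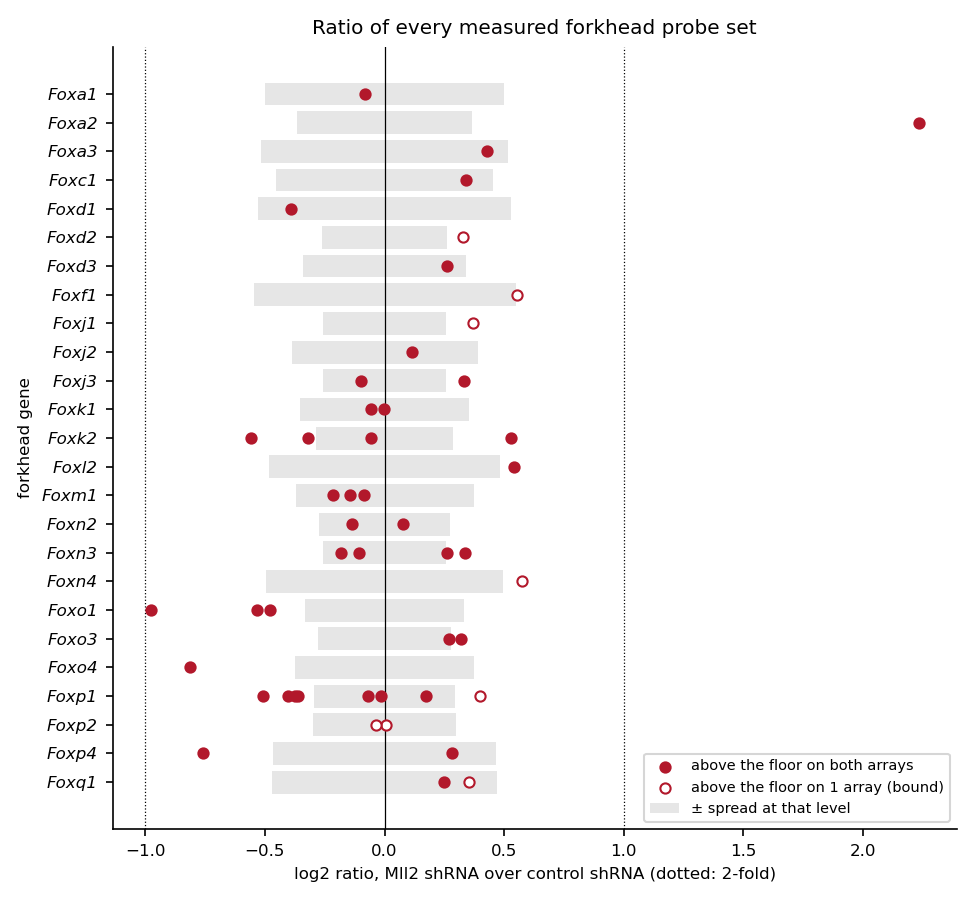
Log2 ratio of Mll2 shRNA over control shRNA (x axis) for each probe set of the 25 measured forkhead genes (y axis); filled points were above the floor on both arrays, open points are bounds, and grey bars are plus and minus the spread at the level of the probe set used. The 3 Foxo1 points run from -0.98 to -0.48 and both Foxo3 points are positive. Foxj3, Foxk2, Foxn2, Foxn3, Foxp1, Foxp2 and Foxp4 have points on both sides of 0.

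Of 22 genes for the insulin and PI3K branch and for other proteins that act on Foxo proteins, 20 were measured and none differed by 2-fold. At 1.5-fold, 1 gene was higher and 1 lower, where 7.4% of all measured genes were higher and 4.68% lower. The median was 0.10 against 0.03 over all measured genes. Sgk3, a kinase related to Akt, was 1.84-fold lower (222 and 408, log2 ratio -0.88), and its other probe sets reached up to -0.51. Pik3cb, a catalytic subunit of PI3K, was at 0.65 (947 and 604). Sgk1, another kinase of this family, was at 0.46 (13515 and 9806), and Pik3r1, a regulatory PI3K subunit, at 0.46, with other probe sets down to -0.07.

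Of 24 genes described as Foxo targets, 22 were measured. One was at least 2-fold higher and none 2-fold lower, where the shares over all measured genes were 1.47% and 0.983%. Ratios were above 0 in 16 and below in 6, against 53.5% above 0 over all measured genes, and the median was 0.22, against 0.03 over all measured genes. That median stayed between 0.20 and 0.34 under the alternatives. Pdk4, a kinase that inhibits pyruvate dehydrogenase, was 4.09-fold higher (344 and 84.0), with its control signal close to the floor. Cdkn1b, the cell cycle inhibitor p27, was at 0.91 (851 and 452). The transcriptional repressor gene Bcl6 was at 0.70 (255 and 157). Fbxo32, a ubiquitin ligase gene of muscle atrophy, was at -0.90 (66.5 and 124), with -0.33 in its other probe set. Genes of this list have other regulators too, and their link to the Foxo transcripts was not tested.

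**Figure D4:**
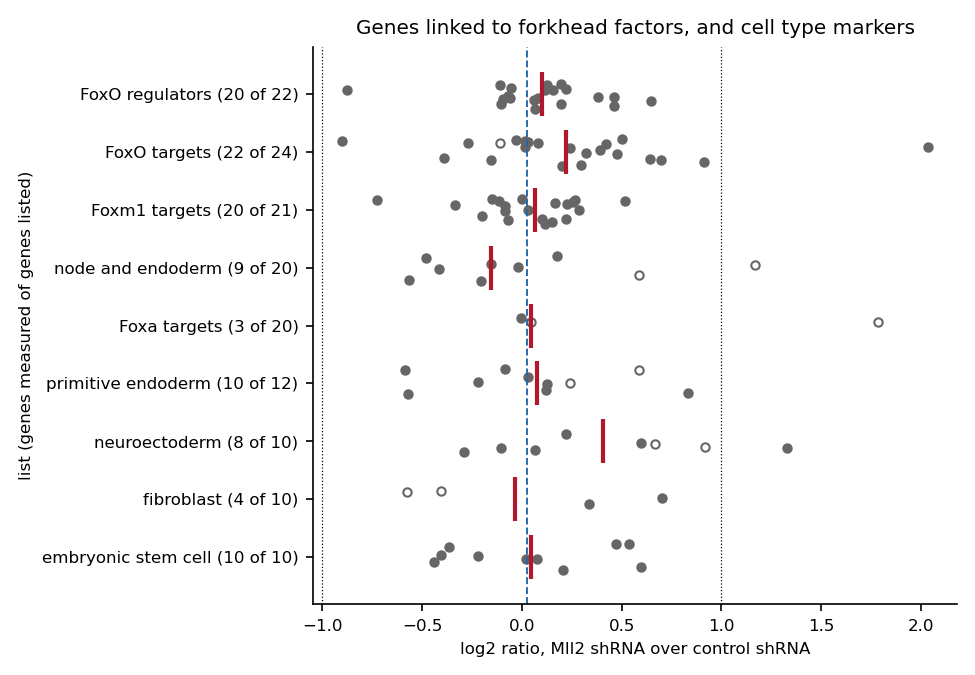
Log2 ratio of Mll2 shRNA over control shRNA (x axis) for the measured genes of 9 lists (y axis); filled points were above the floor on both arrays, open points are bounds, red bars are list medians and the dashed line is the median of all measured genes, 0.03. Pdk4 (2.03) and the Apob bound (1.78) are the points farthest to the right, and the Foxo target median is at 0.22.

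Foxm1, a driver of mitotic genes, had 248 in the knockdown array and 274 in the control array (-0.14, spread 0.37). Its 3 probe sets above the floor averaged -0.15 ± 0.06 (SD), all inside that spread. Of 21 mitotic genes described as its targets 20 were measured and none differed by 2-fold. Their median was 0.07, and -0.08 without probe sets that read several transcripts. Aurka, a mitotic kinase, was at -0.73 (1836 and 3036), but its other probe set gave 0.62. The cyclin gene Ccnb2 was at 0.51, the anaphase activator gene Cdc20 at -0.34 and the mitotic kinase gene Aurkb at 0.29.

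Foxd3, which mouse embryonic stem cells need to stay undifferentiated, had 418 in the knockdown array and 349 in the control (0.26, spread 0.34), within the spread. Foxd1, known from kidney stroma, was at 65.5 and 86.0 (-0.39, spread 0.53). Foxd2 was at least 1.26-fold higher, with 81.3 in the knockdown array and 33.8, under the floor, in the control.

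Foxp1, of which embryonic stem cells make a splice form of their own, had 8 probe sets, all measured and 7 above the floor on both arrays. Those 7 averaged -0.22 ± 0.25 (SD) and ran from -0.51 to 0.18. The probe set used for the gene had 2262 and 2371 (-0.07, spread 0.29). The lowest had 1055 and 1499 (-0.51). The eighth, with 85.3 in the knockdown array and 14.7 in the control, was at least 1.32-fold higher. The Foxp1 probe sets did not share a direction, and the ratio used turned to 0.05 with spike-in scaling.

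Foxp4, a relative of Foxp1, was 1.69-fold lower in the probe set used (94.6 and 160, log2 ratio -0.76, spread 0.47), but its other probe set above the floor had 115 and 94.1 (0.28). The mean of both was -0.24 ± 0.74 (SD), so the direction of Foxp4 was not settled by these arrays. Foxp2, known for its role in speech in humans, passed the floor in 2 of 6 probe sets, each on 1 array only and in opposite directions. The probe set used had 65.0, barely over the floor, and 57.5 (ratio at least 0.0047), and the other 13.4 and 66.4, at least 1.03-fold lower.

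The Foxj, Foxk and Foxn genes other than Foxj1 and Foxn4 had ratios between -0.11 and 0.33 in the probe sets used. Foxj3 had 2962 and 2350 (0.33), outside the spread of 0.26 at its level, but 182 and 195 (-0.10) in its second. Foxj2 was at 323 and 298 (0.12). Foxk1 (362 and 376, -0.05) and Foxk2 (935 and 971, -0.06), repressors of autophagy genes, were near 0 in the probe sets used, and both turned positive with spike-in scaling (0.06 each). The 4 Foxk2 probe sets above the floor ran from -0.56 to 0.53. Foxn2 was at 1906 and 1808 (0.08), and Foxn3 at 1233 and 1329 (-0.11), with its 4 probe sets between -0.18 and 0.34. Foxk1, Foxk2, Foxn2 and Foxn3 each changed sign under at least 1 alternative.

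Foxl2, Foxc1, Foxq1, Foxn4, Foxf1 and Foxj1, each named here for the tissue it is best known from, had signals of at most 178 on either array. Foxn4, Foxf1 and Foxj1 passed the floor on the knockdown array only, and their ratios could only be positive. Foxl2, a factor of the ovary, had 178 in the knockdown array and 123 in the control (0.54, spread 0.48). Foxc1, of mesoderm and eye, had 121 and 95.7 (0.34, spread 0.46), and Foxq1, of hair and gut, 142 and 119 (0.25, spread 0.47). Foxn4, of retina and spinal cord, was at least 1.49-fold higher (96.4 and 54.5), and Foxf1, of lung and gut mesoderm, at least 1.47-fold higher (95.0 and 60.7). Foxj1, the regulator of motile cilia, had 83.8 and a control signal of 2.28, far below the floor, so that its ratio of at least 1.29-fold depended on where the floor was set.

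The remaining 11 genes, Foxb1, Foxb2, Foxc2, Foxd4, Foxe3, Foxf2, Foxi1, Foxl1, Foxn1, Foxp3 and Foxs1, were under the floor on both arrays in all their probe sets, and no difference could be measured. Among them are Foxn1 of the thymus, Foxp3 of regulatory T cells and Foxe3 of the lens. The share of Fox genes that were measured was 69.4%, against 64.9% of all named genes.

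Agreement between probe sets of a gene was used to judge these sizes. In 10 Fox genes, at least 2 probe sets had both signals over the floor, and the 2 of highest mean had ratios of the same sign in 7 and of opposite sign in 3. The difference between them had an SD of 0.43, against 0.37 over 4713 genes of the whole table. Signs were not counted over those genes, so the sign counts have no background. Some pairs, such as those of Foxo1 and Foxo3, carry the same accession and are not independent. Ratios outside the spread at their level were found in 10 of the 25 genes, of which 6 were above the floor on both arrays: Foxa2, Foxj3, Foxl2, Foxo1, Foxo4 and Foxp4. The other 4, Foxd2, Foxf1, Foxj1 and Foxn4, passed the floor on the knockdown array only. The same spread left 33.5% of all measured genes outside it, and 32.9% of those above the floor on both arrays, so the counts by themselves do not set the Fox genes apart. Of the 6, only Foxo1 had further measured probe sets that all shared its direction.

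**Figure D5:**
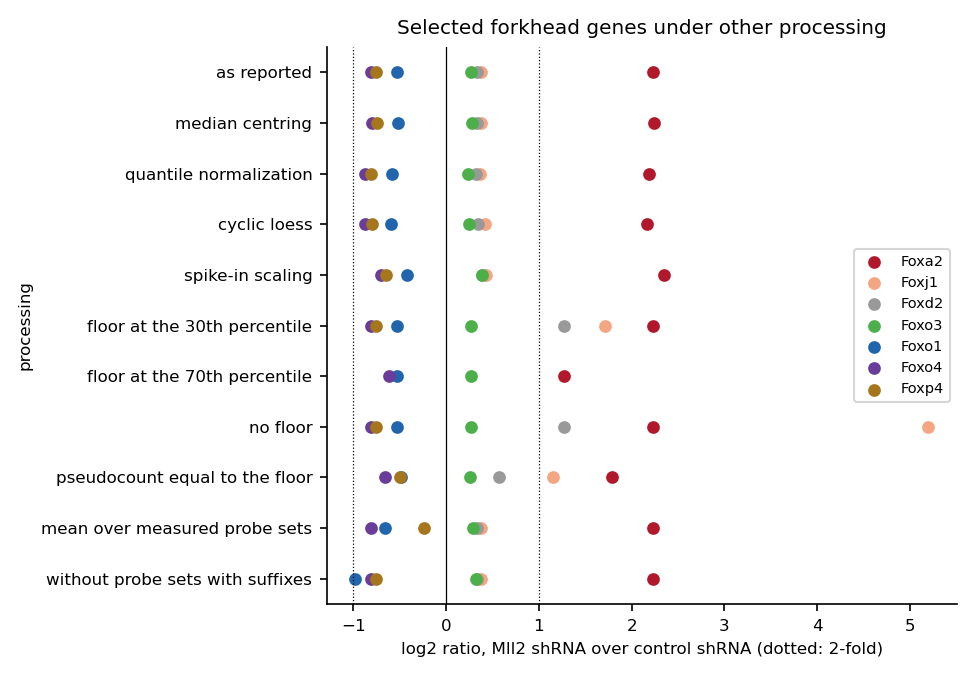
Log2 ratio of Mll2 shRNA over control shRNA (x axis) of 7 forkhead genes as reported and under 10 other ways of processing (y axis), with dotted lines at 2-fold; a gene under the floor on both arrays has no point. Foxa2 stays past 2-fold, between 1.27 and 2.35, while Foxj1 runs from 0.37 to 5.20 and Foxd2 from 0.32 to 1.27 with the treatment of dim values.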

How the data were processed

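RNA of 2 samples, 1 per group, was measured on 2 arrays. The authors deposited log2 signals that, per the submitters' processing notes, were made with MAS5, and the 2% trimmed mean of the linear signals was 500.0 on both arrays. The software version is not given in the sources used here. Detection calls were not used. After 64 control probe sets were set aside, 45037 remained; the platform annotation named 34945 by 1 symbol and 932 by several, and 9160 were unnamed here. Symbols were updated through Entrez numbers to RefSeq (GRCm38.p6) for 34741. Arrays correlated across probe sets with r = 0.93, and medians were 6.01 and 6.02.

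The floor, ratios and spread are as described above. Counts are at a ratio of 2-fold. The members and all lists were chosen with earlier results of these data known. Every measured Fox gene is named, and of each list the up to 4 members with the largest ratios plus any past 2-fold. Nes, Zic1, Pax6, Tubb3, Gata6, Sox7, Krt18, Epcam, Nodal, Hhex and Eomes were added after their values were seen. The low number of arrays limits precision. The steps were tested on simulated data, with large changes planted in bright genes and noise smaller than the spread at the levels of the Fox genes. That test does not cover dimmer genes, among them Foxa2 and most other Fox genes. Python 3.11.15, numpy 2.4.6, pandas 2.3.3, and scipy 1.17.1 were used, and limma 3.58.1 in R 4.3.3 for cyclic loess. The spike-in scaling used 18 bacterial control probe sets, whose mean difference was -0.12.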

Additional observations from a re-analysis of the deposited data

How the results depend on the processing

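The 10 alternatives were median centring, quantile normalization, cyclic loess, spike-in scaling, a lower floor (30th percentile), a higher floor (70th percentile), no floor, the floor value as a pseudocount, averaging a gene's probe sets, and dropping probe sets with suffixes. Foxa2 was at least 2-fold higher under all 10. Its log2 ratio was 1.27 with the higher floor, which lay above the control signal, and 1.79 with the pseudocount. The number of Fox genes at least 2-fold higher was 3 of 31 with the lower floor, 6 of 36 with no floor and 2 of 25 with the pseudocount. The shares over all measured genes in these settings were 3.22%, 9.64% and 0.737%. Foxa2, by which the family was chosen, is in each of these Fox counts. With no floor 1 of 36 was at least 2-fold lower, against 9.59% of all genes. At a threshold of 1.5-fold, 2 Fox genes were lower, and at 3-fold only Foxa2 passed. The genes added were Foxd2 and Foxj1, and with no floor Foxb2, Foxc2, Foxs1 and, downward, Foxi1, all with signals under the 50th percentile on at least 1 array. Over all genes, 173 were higher and 116 lower of 11805 as reported, and 1753 higher and 1744 lower of 18193 with no floor. The median Fox ratio was 0.23 with spike-in scaling, which moved the median of all measured genes by 0.11, -0.055 with the higher floor and 0.19 with no floor. Of 25 Fox genes, 18 kept their sign under each alternative that gave them a value and 7 did not. Among the 18 are Foxd2, Foxf1, Foxj1 and Foxn4, which passed the floor as reported on the knockdown array only, so that their ratios could only be positive there. Several alternatives leave the ratio of many genes as reported. The same count over all measured genes was not made, so this count does not set the Fox genes apart. Foxp4 was at -0.24 as the mean over probe sets. Kmt2d stayed past 2-fold lower, and Kmt2b became 0.04 with spike-in scaling. No paired analysis was possible because each group has 1 array. For probe sets under the floor no difference was detectable.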

Other observations

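Of the 79 Fox probe sets, 30 were under the floor on both arrays. Their deposited values without a floor were higher in the knockdown array in 20 and lower in 10. They differed by 2-fold or more in 14, that is in 46.7%, 10 upward and 4 downward. Over all 20966 probe sets under the floor on both arrays, 45.4% differed by as much and 47.6% were higher in the knockdown array. The largest such Fox values were those of a second Foxd2 probe set, with signals of 34.8 and 2.41, and of a Foxp2 probe set, with 22.1 and 2.52.

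A probe set that names Foxm1 together with Tex52 and Pebp1 had signals of 669 in the knockdown array and 820 in the control array (log2 ratio -0.29), and was given to none of these genes. One that names Foxo3 together with Gm38485 was under the floor on both arrays. Foxl2os, the antisense neighbour of Foxl2, was at 71.1 and 68.9 (0.04), where Foxl2 itself was at 0.54.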
